A study of Rattus norvegicus with 6 samples.

Results

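Primary rat hippocampal cultures labelled as astrocytes were compared after 12 h of 200 nM insulin and in the control state. Of 37183 gene symbols in the table of expression values, 6221 (16.7%) entered the comparison, because they had a value in both libraries and reached 1 FPKM in at least 1 of them. FPKM counts fragments per unit of transcript length and of library size, and all levels below are in FPKM. Levels of different genes can be compared only roughly, and less so where reads fit near-identical copies of a gene. A difference is the log2 level in the 12 h library minus that in the control library, so a difference of 1 is a 2-fold change. Each condition had 1 library. There is therefore no replicate check, no test and no error for any value, and all sizes describe these 2 libraries. A gene is said to have risen or fallen only where its difference reached 1 in size.

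Astrocytes had been grown in medium with 10% FBS and 25 mM glucose. In all 3 groups this was exchanged for 2% FBS and 5 mM glucose 4 h before treatment. The control is titled as saline in one label and as untreated at 0 min in another. The insulin cultures were harvested 6 h or 12 h later, so hours of insulin and hours in the low-serum, low-glucose medium cannot be told apart. No gene was altered and the labels name no transgene. The 6 h library shares the control library with the 12 h comparison, and its levels are given side by side.

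Insulin is known to promote lipid synthesis in part through the SREBP transcription factors, which are held in the endoplasmic reticulum by INSIG proteins and, once released and cleaved, switch on the genes of cholesterol and fatty acid synthesis. Brain cholesterol is made locally, to a large part in astrocytes, and is handed to neurons on apolipoprotein E particles. SR proteins and hnRNPs bind nascent transcripts and direct splice-site choice, and the CLK kinases phosphorylate SR proteins. Many SR and CLK genes also make nuclear or unstable transcript forms through which they limit their own output. Immediate-early genes such as Fos and Egr1 are switched on within minutes of a growth factor pulse and decline within hours. The matrix of cultured astrocytes holds collagens, fibronectin, thrombospondins and their proteases.

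The labelled cell type was checked against marker genes. Of 12 astrocyte markers, 7 passed 1 FPKM in either library. Of these 7, 2 had a 12 h difference above 0 and 5 below 0, with a median of -0.09. The lowest was Glul, at 5.32, 4.20 and 3.29 in the control, 6 h and 12 h libraries, a difference of -0.69. The intermediate filament gene Gfap was at 6.23, 12.4 and 8.45 in the control, 6 h and 12 h libraries. The gap junction gene Gja1 was at 11.9, 10.8 and 11.7, and the receptor gene Fgfr3 at 22.1, 24.3 and 31.0. 4 markers of mature astrocytes were near 0 in the control: the water channel Aqp4 at 0.0985, the glutamate transporters Slc1a2 at 0.000946 and Slc1a3 at 0.115, and Aldh1l1 at 0.0242. Contractile and matrix genes were abundant, with Tagln at 353, 372 and 417 and Col1a1 at 44.2, 49.4 and 60.4. The cultures are therefore called astrocyte-labelled below. Over the 8 pericyte and smooth muscle markers the summed level was 425, 438 and 504. Of these markers 4 passed, and all 7 with values had a 12 h difference above 0. Others were near 0 in the control, with Rgs5 at 0.00424 and Myh11 at 0.00821. Over the 8 fibroblast and meningeal genes the summed level was 73.5, 75.04 and 92.9, with Dcn at 0.0665. Of their 9 rows with values 4 were above 0 and 5 below, and the 3 that passed, Col1a1 among them, were above 0. Microglial markers summed to 4.20, 6.67 and 5.11, of which Tmem119 was 4.09, 6.42 and 4.79, and Cx3cr1 was at 0.00196 in the control. In such bulk libraries, fewer cells of a type and less RNA per cell cannot be told apart.

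Most genes lay close to their control level at 12 h. The median difference over the 6221 genes was 0.10, with the middle 50% of genes between -0.06 and 0.25 and the 5th and 95th percentiles at -0.41 and 0.52. Differences below are on the deposited scale and are read against this median of 0.10. A gene that rose was 1 of 38 (0.611% of those compared), and a gene that fell was 1 of 57 (0.916%). Low levels held most of them: 30 of the 38 and 44 of the 57 were under 5 FPKM in both libraries. Many were also not named genes. The 38 comprised 19 gene symbols, 14 locus identifiers, 3 pseudogenes or numbered copies and 2 small or ribosomal RNAs, and the 57 comprised 14, 31, 4 and 8. When the 12 h values were shifted so that the all-gene median was 0, 28 genes were higher and 71 lower by that size. Rebuilding the quantiles over symbols valued in all 3 astrocyte libraries gave 27 and 70. The lower part of the split is thus the larger under each of these scalings, and the higher share of the called genes went from 40% to 28.3% and 27.8%.

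**Figure D1:**
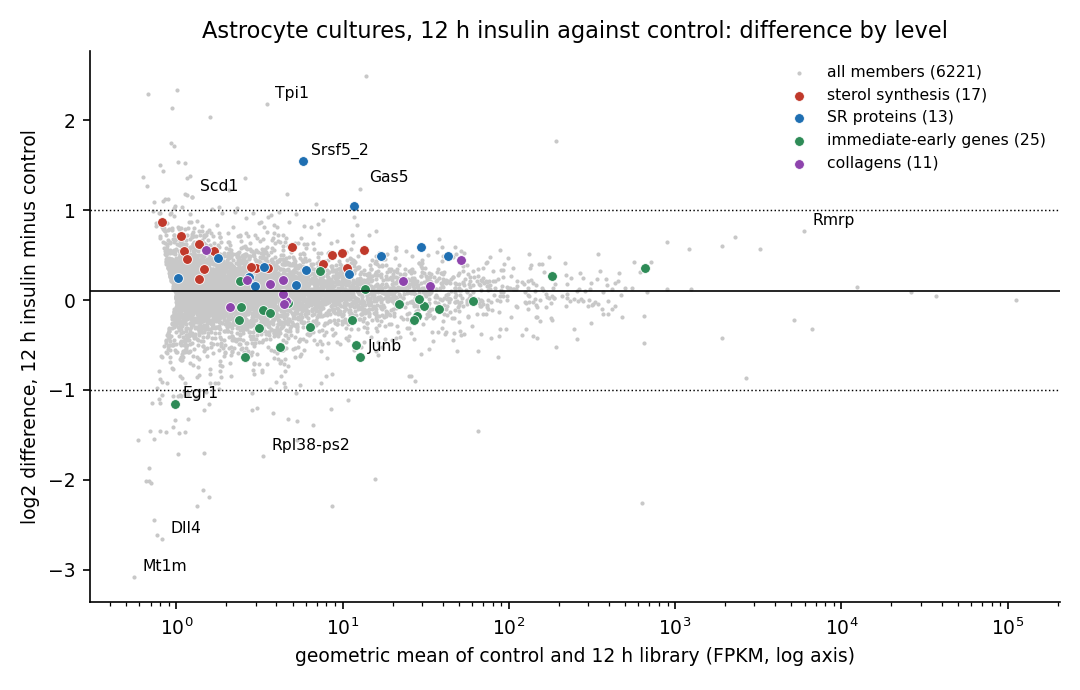
Log2 difference (12 h insulin minus control, vertical axis) against the geometric mean of the 2 libraries (FPKM, log axis) for all 6221 genes, 1 point a gene, with 4 gene lists in colour. The solid line is the all-gene median of 0.10 and the dotted lines mark differences of 1 and -1; the sterol synthesis genes lie above the solid line and none reaches 1.

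The 1 FPKM entry rule lets in a gene that is low in one library when it is high in the other. It admitted 441 genes through the 12 h library alone and 186 through the control alone. Gene lists were therefore also counted in 2 ways that do not lean to either side. The first counts every listed gene with a value in both libraries, whatever its level, as above or below 0, where 68.4% of 21542 symbols were above 0. The second takes the 5912 genes whose geometric mean over the 2 libraries was 1 FPKM or more, called a mean of 1 FPKM or more below. It asks how many listed genes lay in the top 25.0% of the differences of these 5912 genes, at 0.24 or more. The bottom 25.0%, at -0.05 or less, is counted in the same way. At the entry limit, Neto2 (0.917 in the control, 1.00 at 12 h) was just inside and Mkrn3 (0.756 and 1.00, just under the limit) just outside. At the 2-fold limit, Mmp11 at -1.01 was just inside and Snhg4 at 0.98 just outside.

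The genes of cholesterol synthesis stood above the all-gene median together at 12 h, each by less than 2-fold. All 20 listed enzymes had a value in both libraries and 19 were above 0, against 68.4% of all symbols. Of the 16 at a mean of 1 FPKM or more, 15 lay in the top 25.0% of differences and 0 in the bottom 25.0%. The median over the 17 that passed the entry rule was 0.50, 4 of them entering through the 12 h library alone, and the median over all 20 was 0.48. None of the 17 reached 2-fold, where 0.611% of all genes did. Summed over the enzymes, the levels of the 3 libraries in order of time were 64.9, 78.3 and 90.0.

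Enzymes of the mevalonate arm make the isoprenoid units. Hmgcs1, which condenses acetyl-CoA units into HMG-CoA, was at 9.40, 10.3 and 12.1 in the control, 6 h and 12 h libraries, a difference at 12 h of 0.36. The 12 h library was the highest of the 3 and the 6 h library lay between. Idi1, the isomerase of isopentenyl diphosphate, was at 7.28, 8.98 and 10.3 (0.50). Fdps, which makes farnesyl diphosphate, had the highest level of the pathway, at 11.0, 13.5 and 16.3 (0.56). Acat2, which forms acetoacetyl-CoA, was at 1.40, 1.80 and 2.05 (0.55). These 3 followed the same order over the libraries. All 9 genes of this arm were above 0, with a median of 0.36 over the 8 that passed. The smallest difference among the 8 was that of Pmvk, at 1.26, 1.45 and 1.49 (0.23). Mvk did not reach the entry limit, at 0.648, 0.895 and 0.985. Mvd, the decarboxylase, was at 1.30, 1.69 and 1.66, so its 6 h and 12 h levels were close.

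The squalene-to-cholesterol arm had the larger differences, with a median of 0.55 over 9 genes that passed. Of these, 4 entered through the 12 h library alone, against 0 in the mevalonate arm. At a mean of 1 FPKM or more the median was 0.54 over 8 genes, and over all 11 it was 0.53. For the mevalonate arm both of these medians were 0.36. Lss, the cyclase that makes lanosterol, was at 0.606, 0.827 and 1.11 (0.87), the largest difference of the pathway, and it entered through the 12 h library alone. Nsdhl, a dehydrogenase of C4 demethylation, was at 1.10, 1.32 and 1.69 (0.62). Both genes are at low levels, where the spread of all genes was wider: the 5th to 95th percentile range was 1.06 for genes at 1 to 2 FPKM and 0.882 for genes at 2 to 5 FPKM. Better expressed steps gave the same picture at smaller size. Sc5d was at 4.05, 4.94 and 6.10 (0.59). Msmo1, the C4 methyl oxidase, was at 8.22, 10.5 and 11.8 (0.53). Cyp51, the lanosterol demethylase, was at 6.60, 7.62 and 8.72 (0.40). In these 3 genes the control was the lowest library and 12 h the highest. Sqle, the squalene epoxidase, was at 3.16, 3.63 and 4.03 (0.35), and Fdft1, the squalene synthase listed with the mevalonate arm, at 2.49, 2.79 and 3.20 (0.36). Tm7sf2 and Dhcr7, both sterol reductases, gave 0.55 and 0.45. Under the limit stayed Ebp, at 0.736, 0.741 and 0.795, and Hsd17b7, at 0.246, 0.221 and 0.215, the only listed enzyme below 0.

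Promoter sequence is shown for 3 genes of sterol control whose differences lay in the top 25.0% and whose levels are high for their lists. The 250 bases before the RefSeq start site (build GRCr8, which is not the Rnor 6.0 build of the expression values) were searched on both strands for 4 motifs. The first is a sterol regulatory element spelled TCACNCCAC. The second is the CCAAT box, which binds the NF-Y factor that often works beside SREBP. Of the 17 sterol enzymes, 12 had a promoter in the table, and 9 of these (75%) held a CCAAT box. It was in 37.8% of 3707 promoters of compared genes and 34.0% of all 33469. The box was also in 11 of 19 promoters (57.9%) of the immediate-early genes described below, so it is not particular to the sterol enzymes. The sterol element was in 0 of the 12 and in 0.974% of all promoters, which says only that these exact letters were not in that window. In the stretches below, written 5′ to 3′ on the gene's strand, capitals mark a CCAAT box or its reverse complement ATTGG.
Fdps, chr2:176804872-176804971, minus strand: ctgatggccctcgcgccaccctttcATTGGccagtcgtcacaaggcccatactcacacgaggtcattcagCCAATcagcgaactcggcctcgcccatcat
Hmgcs1, chr2:53382091-53382200, plus strand: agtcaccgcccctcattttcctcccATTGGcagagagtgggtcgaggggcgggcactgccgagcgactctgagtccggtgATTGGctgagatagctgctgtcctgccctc
Insig1, chr4:8057933-8057987, minus strand: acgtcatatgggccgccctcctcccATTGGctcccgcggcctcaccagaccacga
The boxes begin 130 and 85 bases before the start site in Fdps, 188 and 133 bases before it in Hmgcs1, and 193 bases before it in Insig1. Such a match is a description of the letters and not a site of binding.

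Regulators and carriers of sterol were divided. Of 29 listed genes 17 were above 0, and of the 12 that passed, 4 lay in the top 25.0% and 5 in the bottom 25.0%, with a median of -0.01. Insig1, the retention protein that is itself an SREBP target, was at 9.46, 10.9 and 13.1 (0.47). Srebf2, which encodes SREBP2, was at 1.21, 1.27 and 1.49 (0.31). Both were in the top 25.0%. The 7 listed efflux and carrier genes were low in these cultures. They summed to 9.67 in the control, against 752 in the control of the neuron-labelled cultures of the series. Of the 3 efflux and carrier genes that passed, 1 lay above 0 and the others below. Lcat, which esterifies cholesterol on lipoproteins, was at 0.793, 1.51 and 1.37 (0.79), the highest of the 12. Apoe, the main apolipoprotein of the brain, was at 5.15, 5.37 and 3.26 (-0.66), so its 6 h level was near the control and only its 12 h level was lower. Clu, another apolipoprotein, was at 2.62, 2.87 and 2.28 (-0.20). The endocytic receptor gene Lrp1 was at 3.39, 2.61 and 2.79 (-0.28). Abca1, the cholesterol exporter, did not reach the limit, at 0.977, 0.5801 and 0.638. None of the 12 reached 2-fold in either direction.

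Of the fatty acid synthesis genes 22 of 26 with values were above 0, and 6 of the 11 that passed were in the top 25.0%, with 1 in the bottom 25.0% and a median of 0.25. One gene rose: Scd1, the stearoyl-CoA desaturase that makes oleate, was at 0.832, 1.44 and 1.84 (1.15), from below 1 FPKM in the control. Fasn, the fatty acid synthase, was at 6.78, 8.58 and 9.15 (0.43). Acly, which makes cytosolic acetyl-CoA from citrate, was at 2.06, 2.42 and 2.76 (0.42). These are ordered like the sterol enzymes, with 12 h highest. Srebf1, which encodes SREBP1, was at 1.48, 2.65 and 1.86 (0.33), with its highest level at 6 h. The desaturases of polyunsaturated chains were close to the control: Fads1 was at 4.88, 5.19 and 5.04 and Fads2 at 1.93, 2.06 and 1.90. The carboxylase genes Acaca and Acacb were listed at 0.120 and 0.00386 in the control and did not enter.

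Glycerolipid and phospholipid enzymes were mostly too low to enter: 33 of 40 were under 1 FPKM in both libraries, although 35 of the 40 were above 0. Among the 7 that passed (median 0.17), Dgat1, which completes triglycerides, was at 0.962, 1.38 and 1.68 (0.80). Pcyt2 and Chkb, which act on ethanolamine and choline head groups, were at 2.33, 3.50 and 3.41 (0.55) and at 1.61, 2.23 and 2.31 (0.52). These 3 were the members in the top 25.0%. Of 7 sphingolipid genes that passed, 0 lay in the top or the bottom 25.0% and the median was 0.13. Fatty acid oxidation genes were near the background, with 19 of 25 above 0, against 68.4% of all symbols. Their median was 0.18 over 7, of which 3 entered through the 12 h library alone. In the top 25.0% were 2 and in the bottom 25.0% 0. G0s2, an inhibitor of triglyceride lipolysis, rose from 0.471 to 1.33 (1.504), with 2.28 at 6 h. Its target lipase gene Pnpla2 was at 2.12, 1.23 and 2.85 (0.43). At 6 h the inhibitor was at its highest and the lipase at its lowest level of the 3 libraries. The lipid droplet coat genes Plin2 (1.15, 1.31 and 1.21) and Plin3 (2.75, 2.84 and 3.17) were near the control.

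**Figure D2:**
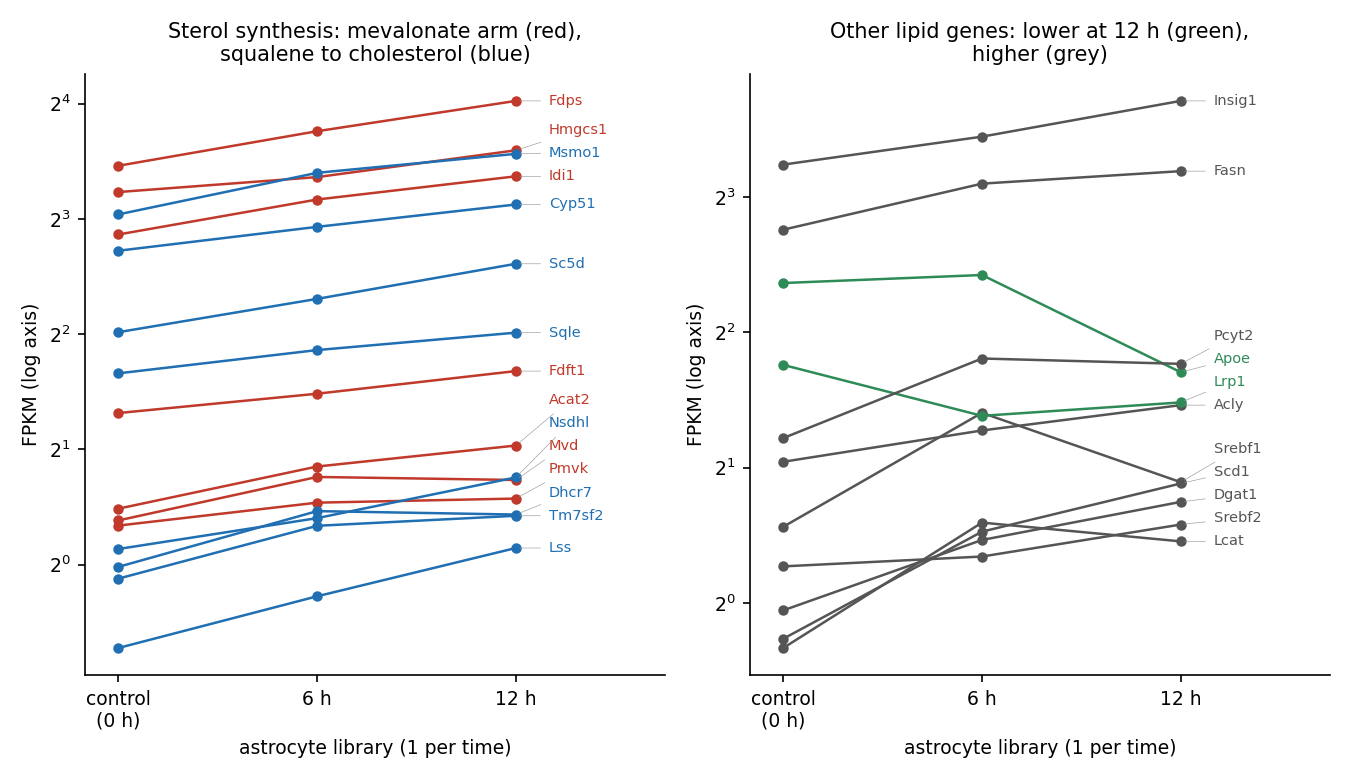
Levels (FPKM, log axis) of sterol synthesis genes named in the text (left) and of other lipid genes (right) in the control, 6 h and 12 h astrocyte libraries, 1 point a library joined by lines, with no error because each time has 1 library. In the left panel 12 h is the highest point for every plotted gene except Mvd and Dhcr7, while on the right Apoe and Lrp1 end below their control.

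The SR protein genes were also higher as a set at 12 h, and a pair of rows of 1 gene rose. Of 14 rows with values 13 were above 0, against 68.4% of symbols. Of the 13 at a mean of 1 FPKM or more, 11 were in the top 25.0% of differences and 0 in the bottom 25.0%, with a median of 0.37. Srsf5, whose product regulates splicing downstream of insulin signalling, has 2 rows in the table, numbered as copies, and reads may be split between them. The first row rose from 8.17 to 16.8, with 10.7 at 6 h (1.04), and the second from 3.38 to 9.90, with 5.18 at 6 h (1.55). After subtraction of the all-gene median the first row was at 0.94, under the 2-fold size, and the second at 1.45. Srsf2 and Srsf1 had the highest levels of the family. Srsf2 was at 36.1, 46.8 and 50.9 (0.50) and Srsf1 at 24.0, 27.8 and 36.3 (0.59). Srsf6 was at 14.3, 17.4 and 20.03 (0.49). All 3 were lowest in the control and highest at 12 h. Srsf11 was at 1.52, 1.55 and 2.10 (0.46), with its 6 h level at the control. The smallest differences were those of Tra2b at 0.16 and Srsf10 at 0.17. Srsf3 was at 9.86, 12.6 and 12.1, Srsf7 at 5.39, 6.85 and 6.78, and Srsf9 at 2.95, 3.86 and 3.80, so these 3 were as high at 6 h as at 12 h. Srsf12 was under the limit, at 0.0277 in the control.

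The kinases that act on these proteins lay above the median as well. All 10 listed SR kinase genes were above 0, against 68.4% of all symbols, and 6 passed. Of these 6, 4 entered through the 12 h library alone. Only 3 were at a mean of 1 FPKM or more, with 2 in the top 25.0% of differences and 0 in the bottom 25.0%. Clk1 was at 2.34, 2.81 and 4.25 (0.86). Clk2 was at 0.662, 0.953 and 1.28 (0.95), Clk3 at 0.958, 1.27 and 1.53 (0.68), and Clk4 at 0.646, 0.715 and 1.11 (0.79). Each CLK gene was highest at 12 h; the last 3 entered through the 12 h library alone. Srpk1, the cytoplasmic SR kinase, was at 1.23, 1.41 and 1.43 (0.22).

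Among hnRNP genes 24 of 25 with values were above 0, 13 of the 21 at a mean of 1 FPKM or more were in the top 25.0% and 1 in the bottom 25.0%, and the median over 23 was 0.28. Hnrnpdl, an AU-rich element binding protein, was at 8.46, 11.1 and 16.1 (0.92). Hnrnph1, which binds G-rich elements, was at 13.8, 14.02 and 19.8 (0.53). Ptbp1, a repressor of neuronal exons, was at 14.1, 15.3 and 18.6 (0.40). Hnrnpul2 at -0.09 was the lowest. Of 31 other splicing regulators 29 were above 0. In this group Ddx5, an RNA helicase, was at 33.8, 36.9 and 47.5 (0.49). Rbmx, an RNA-binding protein, was at 2.28, 2.32 and 3.39 (0.57). Srrm2 and Son, long scaffold proteins of nuclear speckles, were at -0.08 and 0.12.

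The core spliceosome differed less. Of 29 genes 23 were above 0, and 8 of 20 lay in the top 25.0% with 3 in the bottom 25.0%, the median over 22 being 0.23. Snrnp70, the U1 protein, was at 2.57, 3.44 and 4.87 (0.92) and U2af1 at 2.20, 2.84 and 3.11 (0.50). The large subunit genes Prpf8 (4.18, 3.93 and 4.22) and Sf3b2 (4.66, 4.52 and 4.66) were near the control. A long noncoding RNA read next to these lists was Gas5, a host gene of small nucleolar RNAs whose spliced transcript is removed when it is translated. It rose from 8.33 to 19.7, with 15.4 at 6 h (1.24). The related host gene Snhg4 was at 1.61, 1.98 and 3.19 (0.98). Of the 14 host genes listed only 3 were found, and the third, Snhg11, was at 0.00400 in the control.

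Immediate-early genes were on the other side. Of 35 with values in both libraries 11 were above 0, against 68.4% of all symbols. Of 24 at a mean of 1 FPKM or more, 15 lay in the bottom 25.0% and 3 in the top 25.0%, and the median over the 25 that passed was -0.11. Egr1 fell, from 1.46 in the control and 1.24 at 6 h to 0.652 at 12 h (-1.16). It encodes a zinc finger transcription factor of the growth factor response, and 0.916% of all genes fell by that size.

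All 5 AP-1 genes that passed were in the bottom 25.0%. Fos was at 3.21, 2.03 and 2.07 (-0.63) and thus lower in both insulin libraries. Junb was at 15.7, 16.6 and 10.2 (-0.63). Jun was at 12.2, 15.0 and 10.5 (-0.22) and Jund at 29.6, 32.6 and 26.3 (-0.17). In the 3 Jun genes the 6 h level was the highest and the 12 h level the lowest. Maff, a small Maf factor, was at 2.50, 2.99 and 2.37 (-0.07). Fosl1 and Fosl2 stayed under 1 FPKM in the 2 libraries compared and had the opposite order, at 0.531 and 0.872 and at 0.399 and 0.722 in the control and at 12 h. Fosb and Atf3 were under 0.1 FPKM throughout.

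Outside AP-1, Zfp36l1, which speeds the decay of AU-rich transcripts, was at 5.04, 5.31 and 3.52 (-0.52). Gadd45a, a stress-induced growth arrest gene, was at 14.3, 11.7 and 10.1 (-0.50). Ier2 was at 7.02, 8.65 and 5.70 (-0.30), and Btg2, an antiproliferative factor, at 3.50, 3.38 and 2.83 (-0.31). Dusp1, the phosphatase of MAP kinases, was at 29.2, 22.3 and 25.0 (-0.22). Several abundant members did not differ by more than 0.1 in either direction: Ier5, Btg1, Gadd45b and Rhob were at -0.06, -0.04, 0.01 and -0.01. Klf2 and Klf4 were at 0.21 and 0.13. The 3 members in the top 25.0% were Srf, at 6.52, 7.92 and 8.15 (0.32), Cyr61, at 165, 162 and 198 (0.26), and Ctgf, at 582, 741 and 744 (0.36). Srf encodes serum response factor, and the last 2 are secreted matrix-associated proteins. As these have the highest levels, the summed level of the list was 1093 in the control and 1262 at 12 h although most members lay below.

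Feedback genes of the MAP kinase pathway had a median of -0.10 over 7 that passed, with 4 in the bottom 25.0% and 0 in the top 25.0%. Over all 19 genes with values, however, 11 were above 0 and the median was 0.12. Dusp6, the cytoplasmic phosphatase of ERK, was at 6.05, 6.31 and 3.65 (-0.73), and Spry1, an inhibitor of receptor tyrosine kinase signalling, at 1.47, 1.26 and 1.137 (-0.37). Spred3 was at 0.707, 1.136 and 1.09 (0.62). Dusp6 shows the same order as Junb and Zfp36l1, close to the control at 6 h and lowest at 12 h.

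The promoters of the immediate-early genes Egr1 and Srf are shown because they ended on opposite sides while both hold the CArG box, the site of serum response factor. Of 19 list members with a promoter in the table, 4 held a CArG box (Egr1, Klf6, Zfp36 and Srf), against 1.497% of all promoters and 1.29% of those of compared genes. The cyclic AMP element TGACGTCA was in 5 of the 19 (Jund, Maff, Ier2, Btg2 and Dusp1), against 1.59% of all and 3.83% of compared genes. Capitals mark CArG boxes.
Egr1, chr18:26736948-26737029, plus strand: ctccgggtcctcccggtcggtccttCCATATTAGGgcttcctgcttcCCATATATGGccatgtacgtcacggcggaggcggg
Srf, chr9:21923970-21924049, plus strand: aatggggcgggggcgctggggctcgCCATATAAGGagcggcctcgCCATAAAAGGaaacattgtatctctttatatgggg
The boxes begin 105 and 83 bases before the Egr1 start site and 81 and 61 bases before that of Srf. The 4 genes with a CArG box had differences at 12 h of -1.16 (Egr1), -0.11 (Klf6), -0.04 (Zfp36) and 0.32 (Srf).

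**Figure D3:**
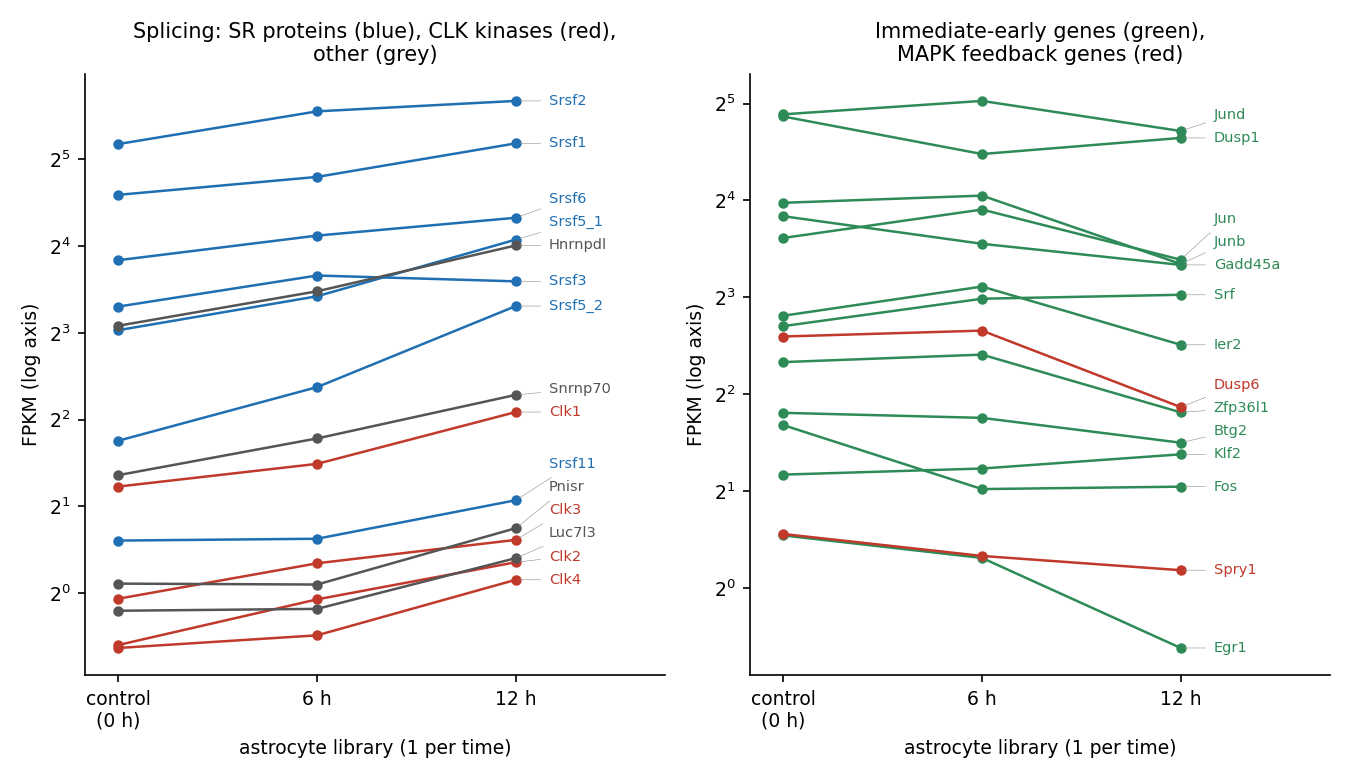
Levels (FPKM, log axis) of splicing genes (left) and of immediate-early and MAP kinase feedback genes (right) in the control, 6 h and 12 h astrocyte libraries, 1 point a library joined by lines, with no error because each time has 1 library. On the left the plotted SR proteins and CLK kinases end above their control, with Srsf3 slightly lower at 12 h than at 6 h. On the right Egr1, Junb, Zfp36l1 and Dusp6 are lowest at 12 h.

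Genes usually read as the inverse of insulin signalling were measured beside these. FoxO and fasting-response genes had a median of -0.15 over the 7 that passed, with 5 in the bottom 25.0% and 0 in the top 25.0%, and 7 of 17 above 0. Txnip, a brake on glucose uptake, was at 15.9, 10.3 and 12.4 (-0.36). Ccng2 was at 2.26, 1.46 and 1.89 (-0.26). For both genes the 6 h level was the lowest of the 3. The separate list of insulin and IGF signalling genes had no common direction: 24 of 35 with values were above 0, and of the 14 at a mean of 1 FPKM or more 3 were in the top 25.0% and 5 in the bottom 25.0%, with a median of 0.12 over the 15 that passed. In it, Irs2, the insulin receptor substrate that FoxO factors induce, was at 2.63, 1.80 and 1.76 (-0.58), and Foxo4 at 2.50, 1.57 and 1.73 (-0.53). Igfbp3, which carries IGF in the extracellular space, was at 3.77, 10.4 and 7.31 (0.95). Igfbp7 was at 5.43, 4.92 and 4.27 (-0.34).

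Matrix genes had no common direction. Of 32 collagen rows with values 22 were above 0, near the 68.4% of all symbols, and of the 11 that passed 2 were in the top 25.0% and 1 in the bottom 25.0%, with a median of 0.18. Col1a1, a chain of type I collagen, was at 44.2, 49.4 and 60.4 (0.45). Its partner chain Col1a2 was in 2 rows, both under 1 FPKM, the higher at 0.375, 0.256 and 0.285. Neither row of Col1a2 followed Col1a1. Reads that fit both rows may be assigned to either or to none, so the level of Col1a2 is uncertain and is not read against that of Col1a1. Col5a1, a chain of type V collagen, was at 1.24, 1.66 and 1.82 (0.56), whereas its partner Col5a2 was at 4.56, 3.93 and 4.53 (-0.01). Col3a1 was at 21.4, 17.1 and 24.8 (0.22), and Col8a2 at 31.6, 32.3 and 35.2 (0.15). The basement membrane chains Col4a1 and Col4a2 were both at 0.22. Col11a1, at 2.16, 1.42 and 2.04 (-0.08), was the lowest that passed.

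Collagen maturation genes were near the background, with a median of 0.14 over 14 and 3 in each of the top and bottom 25.0%. P4ha2, a prolyl hydroxylase subunit, was at 1.87, 2.49 and 2.46 (0.40), and Lepre1, another prolyl hydroxylase, at 3.01, 3.59 and 3.90 (0.38). Lox, which crosslinks collagen and elastin, was at 8.02, 6.52 and 8.40 (0.07). The members other than P4ha2 and Lepre1 lay between -0.09 and 0.28.

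Glycoproteins and proteoglycans at 1 FPKM or more leaned lower, with a median of -0.02 over 32, while over all 59 with values the median was 0.03. Of the 59, 32 were above 0, against 68.4% of all symbols, and of the 31 at a mean of 1 FPKM or more 13 were in the bottom 25.0% and 3 in the top 25.0%. Thbs1, a thrombospondin and the most abundant gene of the list, was at 660, 605 and 703 (0.09). Fn1, fibronectin, was at 28.2, 22.9 and 23.8 (-0.25). Spp1, osteopontin, was at 57.5, 64.9 and 45.3 (-0.34), with its highest level at 6 h. Ecm1 was at 5.42, 4.82 and 4.42 (-0.29), and the brain proteoglycan Ncan at 6.71, 9.06 and 5.67 (-0.24). On the other side, Eln, which encodes elastin, was at 0.558, 0.931 and 1.01 (0.86), entering through the 12 h library alone. Cd44, the hyaluronan receptor, was at 2.31, 2.69 and 2.96 (0.36), and Emilin1 at 6.74, 9.04 and 8.34 (0.31). None reached 2-fold in either direction.

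Proteases and their inhibitors held the matrix gene that fell. Mmp11, a stromelysin, went from 1.94 to 0.966, with 1.10 at 6 h (-1.01). It was the only gene of the 5 matrix and integrin lists to reach 2-fold. The tissue inhibitor gene Timp1 was at 10.0, 6.64 and 6.41 (-0.65), while Timp2 was at 4.80, 4.39 and 4.95 (0.04). Serpinh1, a collagen chaperone counted here for its serpin fold, was at 72.5, 91.8 and 107 (0.56). Plau, the urokinase, was at 4.33, 7.67 and 5.94 (0.46), with its highest level at 6 h. Mmp14, a membrane-type protease, was at 8.53, 10.6 and 10.5 (0.30). The median over the 15 that passed was 0.07, with 7 in the top 25.0% and 5 in the bottom 25.0% of 14. Of the integrins that passed, 3 of 5 at a mean of 1 FPKM or more were in the bottom 25.0%. Itga1, a collagen receptor chain, was at 1.15, 0.819 and 0.740 (-0.63), and Itgb1, the common beta chain, at 18.0, 15.3 and 18.9 (0.08).

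**Figure D4:**
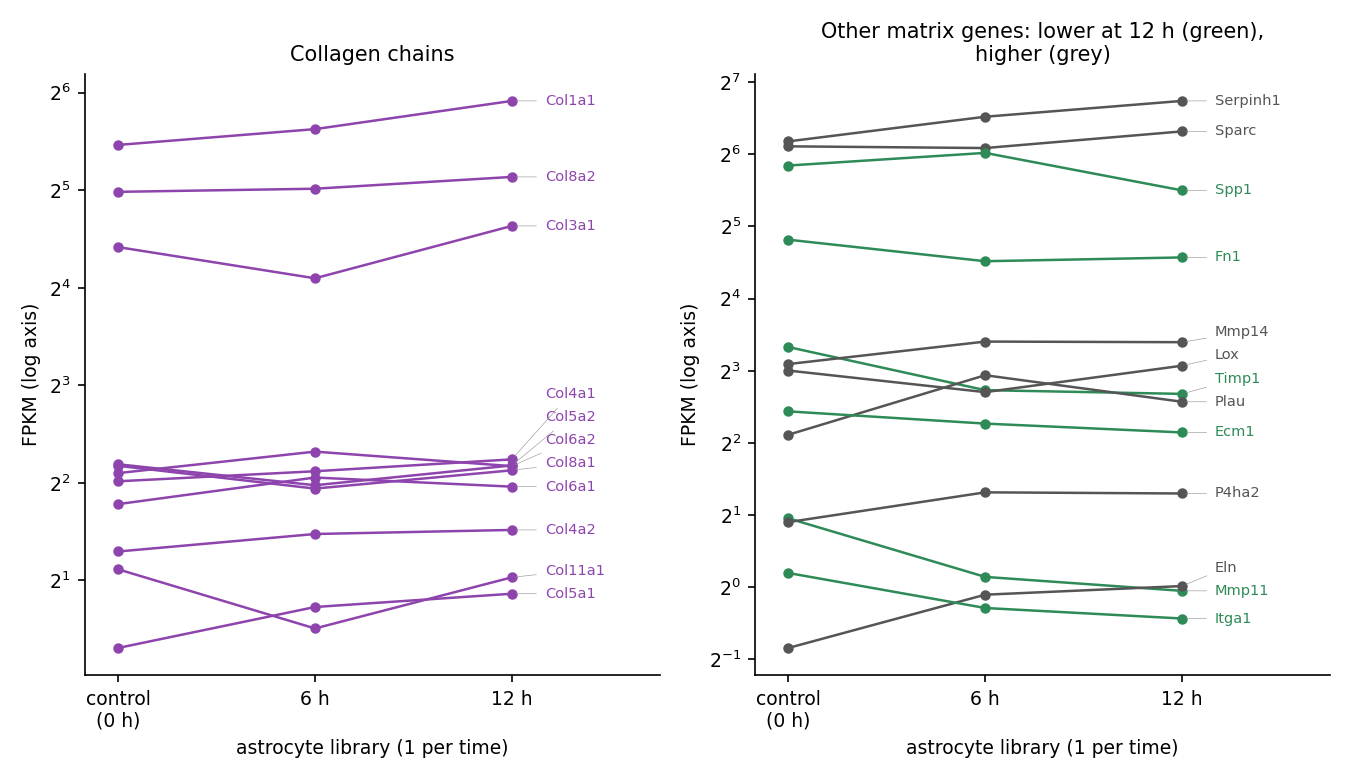
Levels (FPKM, log axis) of the 11 collagen chains that passed 1 FPKM (left) and of other matrix genes (right) in the control, 6 h and 12 h astrocyte libraries, 1 point a library joined by lines, with no error because each time has 1 library. Col1a1 and Serpinh1 end highest at 12 h, whereas Timp1, Mmp11 and Itga1 end below the control.

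Genes at 5 FPKM or more with the largest differences are given next, whether or not they are in a list. Tpi1, a glycolytic isomerase that is in the glycolysis list, rose from 1.65 to 7.46, with 7.11 at 6 h (2.18), and Dpm3, a subunit of dolichol phosphate mannose synthase, from 3.07 to 6.98, with 6.70 at 6 h (1.18). The pseudogene Dpm3-ps1 fell from 7.43 to 2.98, with 2.70 at 6 h (-1.32). Dpm3 and this copy went opposite ways by like sizes, and reads that fit both may be assigned to either, so both values are uncertain. The same holds for Rps6 (8.49, 2.29 and 3.34), Rps9 (7.67, 2.55 and 4.00), Rpl38-ps2 (6.09, 2.71 and 1.83), Rpl41-ps1 (15.8, 9.17 and 7.33) and Hsc70-ps1 (9.20, 16.0 and 16.4), which have near-identical copies, and for Tpi1. A row of the tubulin gene Tubb2a, 1 of its numbered copies and uncertain for that reason, was at 3.54, 7.82 and 6.47 (0.87). Of the remaining genes, whose copies were not examined, Arfip2, a binding partner of Arf and Rac GTPases, was at 2.87, 3.97 and 5.15 (0.84). Fv1 was at 2.67, 4.89 and 5.16 (0.95). Glul, the glutamine synthetase and 1 of the 12 astrocyte markers, was at 5.32, 4.20 and 3.29 (-0.69). Pigc, an enzyme of GPI anchor synthesis, was at 5.66, 5.23 and 3.47 (-0.71), and Higd2al1 at 5.73, 5.18 and 3.19 (-0.84). The noncoding RNAs Rmrp (4569, 12927 and 7785) and Terc (5.41, 5.87 and 3.39) gave 0.77 and -0.68.

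**Figure D5:**
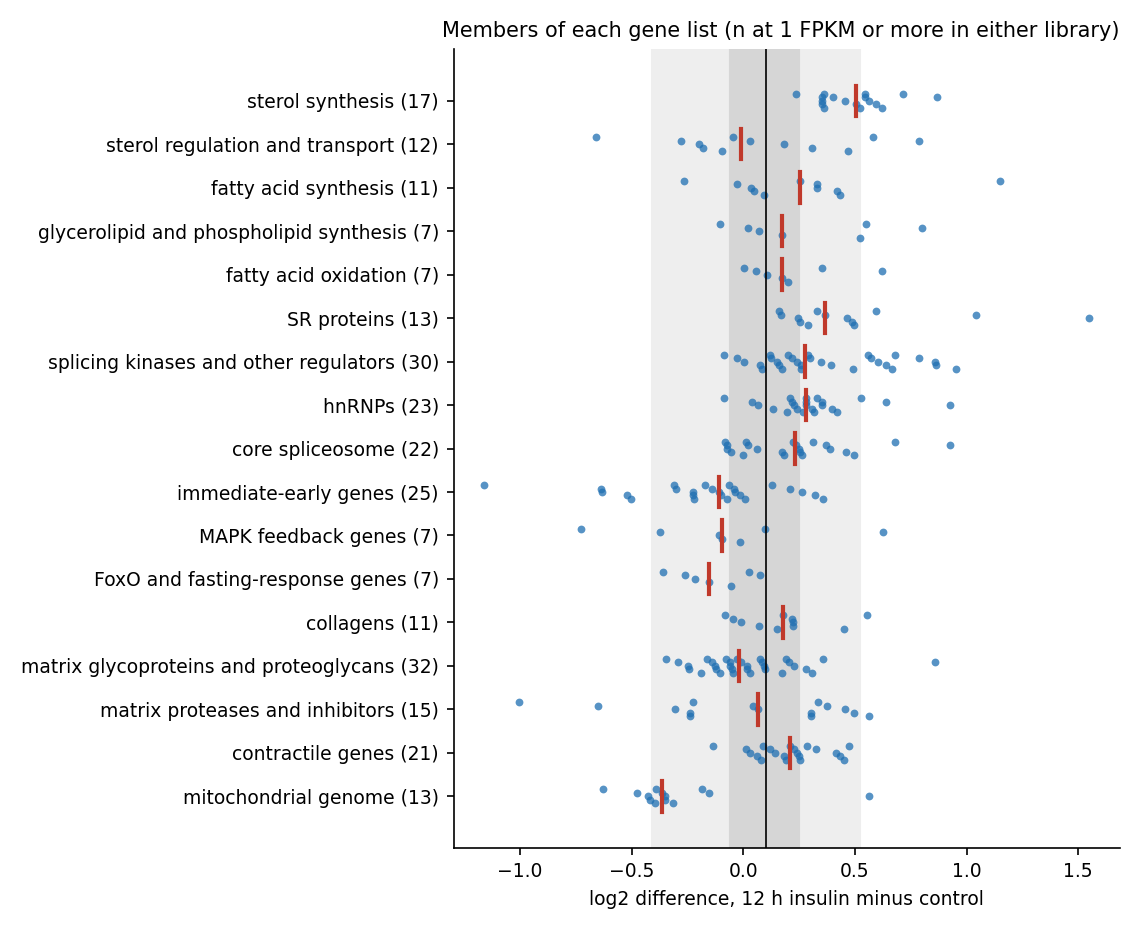
Log2 difference (12 h insulin minus control) of every listed gene at 1 FPKM or more in either library, 1 point a gene and 1 row a list, with the list median as a red bar; the dark and light bands hold the middle 50% and the middle 90% of all 6221 genes and the line is their median of 0.10. Sterol synthesis (median 0.50) and SR proteins (0.37) lie to the right of the line and immediate-early genes (-0.11) to the left, while collagens (0.18) lie near it.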

How the data were processed

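Total RNA of 3 astrocyte-labelled libraries, 1 per group, was used here, and 12 h of insulin was compared with the control; the neuron libraries served only where named. The authors deposited log2 FPKM values, quantile-normalised across libraries, as the deposited table's name states. Partek 6.5, bcl2fastq 2.17.1.14 and build Rnor 6.0 are named in the submitters' processing notes. The aligner, the annotation and any strand-aware counting were not given in the sources used here. Depth is unknown, so no counting interval is given. Levels are 2 to the power of the deposited log2 value, and quantile normalisation forces equal distributions, so a change in total RNA cannot be seen. A repeated symbol (2 in all) kept its row of higher mean. Differences were computed with Python 3.11.15, pandas 2.3.3 and numpy 2.4.6, with no pseudocount, and the code was checked on simulated data. Per-sample columns without a use numbered 0.

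The members and the 37 gene lists (816 genes, 8 lists of markers) were chosen with earlier results of these data known. Of the genes listed, 16 were matched by a synonym, 5 by numbered copies, and 18 are not analysed here. Named genes are the 12 of largest difference in each direction at 5 FPKM or more, leaving out locus identifiers and small or ribosomal RNA. Also named are list members that reached 2-fold, the 4 largest of each list in each direction and its 3 highest in the control. All members of the sterol, SR protein, immediate-early and collagen lists, and markers, complete the rule. Outside this rule, Abca1, Acaca, Acacb, Ccnb1, Clk3, Fads1, Mmp14, ND3, Plin2, Prpf8, Ptbp1, Rbmx, Sf3b2, Son, Srpk1 and Timp2 were chosen after their values were seen. So were LOC103690015, LOC257642, Rn18s and Rn28s, with 12 h differences of 2.496, -2.262, -1.211 and -1.03. The ribosomal RNA rows Rn18s and Rn28s were also below the control at 6 h, by log2 differences of -2.006 and -1.602. Whether the libraries differ in ribosomal RNA content was not tested. Alternatives were other floors, a pseudocount of 1, centring, rebuilt quantiles, dropping locus identifiers, and a smaller size. RefSeq promoters are from build GRCr8. Some single genes are counted in their lists but not reported by name.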

Additional observations from a re-analysis of the deposited data

Results flagged for a closer look

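The medians of 5 gene lists had opposite signs at 12 h in the astrocyte-labelled and the neuron-labelled cultures of the series, each against its own control. Astrocyte and neuron stand below for these labels only. In the neuron-labelled control the 12 astrocyte markers summed to 394 FPKM, against 56.2 in the astrocyte-labelled control. The 13 neuron markers summed to 72.4 and 4.34, and the 10 oligodendrocyte and precursor markers to 118 and 3.96. With 1 library per group the differences between the cultures were not tested, and the neuron median over all genes was 0.14 against 0.10. For immediate-early genes the medians were -0.110 in astrocytes and 0.272 in neurons, although Fos was below its control in both, at -0.63 and -0.55. MAP kinase feedback genes gave -0.0967 and 0.223. Matrix glycoproteins and proteoglycans gave -0.0183 and 0.159, and sterol regulation and transport -0.00803 and 0.129, the last under the all-gene median in both cultures. The neuron medians of these lists rest on 12 and 10 genes and the astrocyte medians on 32 and 12, and with no floor the astrocyte medians were 0.03 and 0.15, so that the signs are no longer opposite; that of the MAP kinase feedback genes was then 0.12. The 13 protein genes of the mitochondrial genome gave -0.362 and 0.463. In astrocytes 12 of these 13 were in the bottom 25.0% of differences, while COX1, the most abundant, had 2648 FPKM without insulin, 1948 at 6 h and 3914 at 12 h, a difference of 0.56. ND5 was at 108, 43.5 and 69.6 (-0.63) and COX3 at 762, 424 and 549 (-0.47), and all but ND3 were lowest at 6 h.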

How the results depend on the processing

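No paired analysis was possible because each group has 1 library, and for the same reason no replicate could be left out. The numbers of genes higher and lower by 2-fold, 38 and 57, were 1939 and 931 with no floor, 8 and 13 at 5 FPKM in either library, 13 and 18 at 1 FPKM in both, 8 and 19 on log2(FPKM + 1), 19 and 14 without locus identifiers, small RNA and copies, and 24 and 35 at a mean of 1 FPKM, a filter chosen after seeing the data; at a size of 0.58 they were 230 and 151. Fewer or more genes enter under the floors by construction. The sterol synthesis median of 0.50 was 0.40 at 1 FPKM in both libraries, 0.34 on log2(FPKM + 1) and 0.40 after centring on the all-gene median. The SR protein median was 0.49 at 5 FPKM. After centring, fatty acid synthesis was at 0.15, SR proteins at 0.26, immediate-early genes at -0.21 and collagens at 0.077. None of these changed sign. Among the other lists, with no floor the medians of sterol regulation (0.15), MAP kinase feedback (0.12), matrix glycoproteins and proteoglycans (0.03) and integrins (0.07) turned positive, as did integrins at 5 FPKM (0.08), and matrix proteases and inhibitors turned negative after centring (-0.04) and with rebuilt quantiles (-0.02), cytokines and chemokines likewise (-0.021 and -0.060), and endoplasmic reticulum genes after centring (-0.0087). Of 89 values of the 13 named genes past 2-fold, 81 stayed past it and 0 reversed. This count says little, because a floor leaves each difference unchanged by construction and a pseudocount cannot change a sign. On log2(FPKM + 1), Scd1 (0.63), G0s2 (0.67), Egr1 (-0.57), Mmp11 (-0.58), Dpm3 (0.97) and the first Srsf5 row (0.96) were short of 2-fold. The others of the 13 stayed past it on that scale. The unknown depth limits genes near 1 FPKM most.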

Other observations

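Several other programs were measured at 12 h. Glycolysis and glucose uptake genes had a median of 0.24 over 16 that passed, with 8 of 15 in the top 25.0%; they include Tpi1 (2.18), whose value is uncertain for its copies. The lactate dehydrogenase gene Ldha had 15.6 FPKM without insulin, 22.5 at 6 h and 22.2 at 12 h (0.51), with Pgam1, a mutase, at 27.5, 35.4 and 39.0 (0.50) and the glucose transporter gene Slc2a1 at 1.06, 1.34 and 1.52 (0.52). Aldoc, the brain aldolase, was at 6.02, 6.25 and 4.74 (-0.34). Of the ATF4 and amino acid genes 21 of 23 with values were above 0 (68.4% of all symbols). Sesn2, a sensor of leucine, was at 0.716, 1.02 and 1.23 (0.79), and Shmt2, of mitochondrial one-carbon metabolism, at 5.02, 7.24 and 6.84 (0.45). Contractile genes had 25 of 26 above 0 and a median of 0.21. Acta2, smooth muscle actin, was at 54.4, 47.4 and 68.2 (0.33), and Zyx, a focal adhesion protein, at 13.6, 15.6 and 18.4 (0.43).

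Cytokine and chemokine genes had a median of 0.08 at 12 h, below 0 after centring on the all-gene median (-0.021) and with rebuilt quantiles (-0.060). Ccl2 was at 4.33, 12.0 and 5.18 and Ccl7 at 3.31, 9.79 and 3.65, so both were high in the 6 h library and near the control at 12 h. In the endoplasmic reticulum list the median was 0.09, and -0.0087 after centring. Calr, the chaperone calreticulin, was at 111, 126 and 158 (0.51), whereas the stress-induced genes Dnajb9 and Herpud1 were at 5.26, 4.71 and 4.16 (-0.34) and at 4.14, 3.41 and 3.31 (-0.32). Cell cycle genes had a median of 0.14 over 26. Mki67, a proliferation marker, was at 5.58, 3.73 and 4.28 (-0.38), while Ccnb1 was at 3.93, 3.65 and 4.33 (0.14).

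Some genes past 2-fold lie outside all lists and were chosen after their values were seen. Dll4, a Notch ligand, fell from 2.07 to 0.328, with 0.399 at 6 h (-2.66). Mt1m, a metallothionein, fell from 1.63 to 0.192, with 2.70 at 6 h (-3.09), and Cxcr4, a chemokine receptor, from 1.06 to 0.480 (-1.14). Med22, a Mediator subunit, rose from 0.451 to 2.28 (2.34), Sepw1, a selenoprotein, from 0.791 to 3.25 (2.04), and M6pr, a mannose 6-phosphate receptor, from 0.508 to 1.37 (1.43). Each of these 6 was under 1 FPKM in 1 of the 2 libraries.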
